A study of Mus musculus with 24 samples.

Results

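Chromatin accessibility was followed at 10 genes of the bone morphogenetic protein (BMP) arm of TGF-beta signalling in mouse embryonic stem cells with and without Smad2: the ligands Bmp2, Bmp4 and Bmp7, the receptors Bmpr1a, Acvr1 and Bmpr2, and the target genes Id1, Id2, Id3 and Id4. The question was whether this arm opens when Smad2 is lost. ATAC-seq uses the Tn5 transposase, which inserts where DNA is open, and an interval's value is its reads in a library after the authors' scaling, called normalized reads here. The members were all ATAC-seq intervals that overlapped the body of 1 of these genes extended by 20 kb on each side, with gene bodies from RefSeq on GRCm38. In the table of untreated cells 191 of 299780 intervals qualified and 182 of them passed the filter on low values, which asked for a value of at least 10 in at least 4 libraries. In the table of inhibitor-treated cells 178 of 272268 qualified and 173 passed. Every member interval was 201 bases wide.

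The cells were the E14 line of mouse embryonic stem cells, kept on gelatin with serum and the cytokine LIF. Wild type (WT) cells were set against 2 knockout (KO) lines, Smad2_KO1 and Smad2_KO2. Libraries were made from untreated cells (Ctrl) and from cells given 200 nM of the mTOR inhibitor INK128 for 12 h to induce a pausing-like state (Paused), with 4 libraries of 50000 cells for each of the 6 groups and 24 libraries in all. How either knockout line was derived is not given in the sources used here, so within 1 line the history of that line and the loss of Smad2 cannot be told apart. The labels do not say whether the 4 libraries of a group came from separate cultures, so p-values measure the spread between these libraries, which may be technical.

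BMP ligands are secreted dimers that bring together type I receptors, such as Bmpr1a and Acvr1, and the type II receptor Bmpr2. The activated type I receptor phosphorylates Smad1, Smad5 and Smad9, which enter the nucleus with Smad4 and switch on target genes, the Id genes among them. Smad2 serves the other arm, which answers to Nodal, Activin and TGF-beta, and shares Smad4 with the BMP arm. Id proteins lack a DNA-binding region and hold E proteins such as Tcf3, Tcf4 and Tcf12 off DNA, and in serum and LIF the BMP arm and the Id genes are known for supporting self-renewal of embryonic stem cells.

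The sequences just before the gene start are shown for Id2, Id4 and Bmpr1a, the members in which an ATAC-seq interval overlapped this stretch in both tables. They come from a RefSeq promoter table (GRCm38.p6), in which 7 of the 10 members were matched by symbol. Each is the 250 bases before the start, 5′ to 3′ on the gene's strand, with matches to GGCGCC, a GC-rich motif bound by BMP Smads, in capitals.
Id2, chr12:25096093-25096342, minus strand: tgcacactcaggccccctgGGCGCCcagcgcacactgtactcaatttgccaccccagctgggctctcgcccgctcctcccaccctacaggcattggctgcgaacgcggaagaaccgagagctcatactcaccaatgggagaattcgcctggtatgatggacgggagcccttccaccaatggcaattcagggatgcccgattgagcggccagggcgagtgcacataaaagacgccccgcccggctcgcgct
Id4, chr13:48260866-48261115, plus strand: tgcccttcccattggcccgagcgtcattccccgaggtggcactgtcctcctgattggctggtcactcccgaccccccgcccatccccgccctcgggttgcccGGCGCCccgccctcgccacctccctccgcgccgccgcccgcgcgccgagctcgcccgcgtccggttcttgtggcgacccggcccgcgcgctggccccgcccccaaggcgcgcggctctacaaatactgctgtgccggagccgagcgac
Bmpr1a, chr14:34502547-34502796, minus strand: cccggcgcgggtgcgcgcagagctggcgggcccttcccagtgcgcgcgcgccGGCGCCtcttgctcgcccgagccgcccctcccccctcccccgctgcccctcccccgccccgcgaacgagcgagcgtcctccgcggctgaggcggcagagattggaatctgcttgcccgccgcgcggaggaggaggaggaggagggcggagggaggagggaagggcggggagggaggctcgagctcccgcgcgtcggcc
GGCGCC, which reads the same on both strands, occurred in 4 of the 7 member sequences (Id2, Id4, Bmpr1a and Bmpr2), against 9.59% of all 32851 sequences of that length in the table. The Smad motif CAGAC, searched on both strands, occurred in 1 of the 7 (Id3) against 42.2%, and AATCCAC, also searched on both strands, in 0 of the 7 against 2.10%. No member sequence held more than 1 of the motifs, so no matches of different motifs overlapped. The member sequences were 62.8 to 85.6% G and C, against a median of 52.4% in the table. A match is a description of the letters and not a binding site.

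The libraries held 11.8 to 16.5 M reads in intervals in Ctrl and 11.5 to 20.0 M in Paused, where every Smad2_KO1 library was deeper than every WT library; the part of depth in the results was not tested. By the median chi-square per degree of freedom, same-numbered KO libraries were closer across lines than libraries within 1 KO line. In Paused the median was 1.03 for same-numbered libraries, 1.19 within Smad2_KO1 and 1.29 within Smad2_KO2. In Ctrl the medians were 1.14, 1.28 and 1.21. Calls in the 2 lines are thus not shown to be independent. Over all intervals of Paused the values between same-numbered KO libraries ran from 1.001 to 1.074, and for replicate 2 the value lay within sampling noise (limit 1.006). These 2 libraries did not differ beyond the sampling noise. Since their labels name different lines they were kept apart in the counts for each line, and counts with same-numbered KO libraries averaged into 1 sample, so that 4 KO averages face 4 WT libraries, stand beside them. The strongest interval at the Smad2 gene itself was open in every library, at 301 to 410 normalized reads in Ctrl and 336 to 534 in Paused, and was not called; accessibility does not measure the gene product. An interval lay at the start of 7 of 7 pluripotency genes in Ctrl (44.9 to 515 normalized reads) and of 6 of 7 in Paused, with none at Klf4. Of 8 genes of other lineages, 4 have a start known here, and intervals lay at the starts of Elf5, Pax6 and Sox1 in both tables and of Cdx2 in Paused, at 32.4 to 170 normalized reads. Open starts were thus not limited to pluripotency genes, and these values give no cell makeup.

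In Ctrl, 7 of the 182 tested member intervals were more accessible and 3 were less accessible in both KO lines than in WT. These are 3.85% and 1.65% of the members, against 3.95% and 3.20% of all 282089 intervals tested in Ctrl (limma, adjusted p under 0.05 in each line with the same sign). In Paused, 17 of 173 were higher and 6 were lower, or 9.83% and 3.47%, against 9.01% and 4.92% of all 260539 intervals tested. With the deposited scaling, the share of members that opened was thus near the share of all intervals in both treatments. The median log2 fold change of the members was 0.11 in Ctrl and 0.12 in Paused, against 0.08 and 0.12 over all tested intervals. Fold changes of single members spanned -1.04 to 1.21 (Ctrl) and -0.79 to 1.43 (Paused) on the log2 scale.

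**Figure D1:**
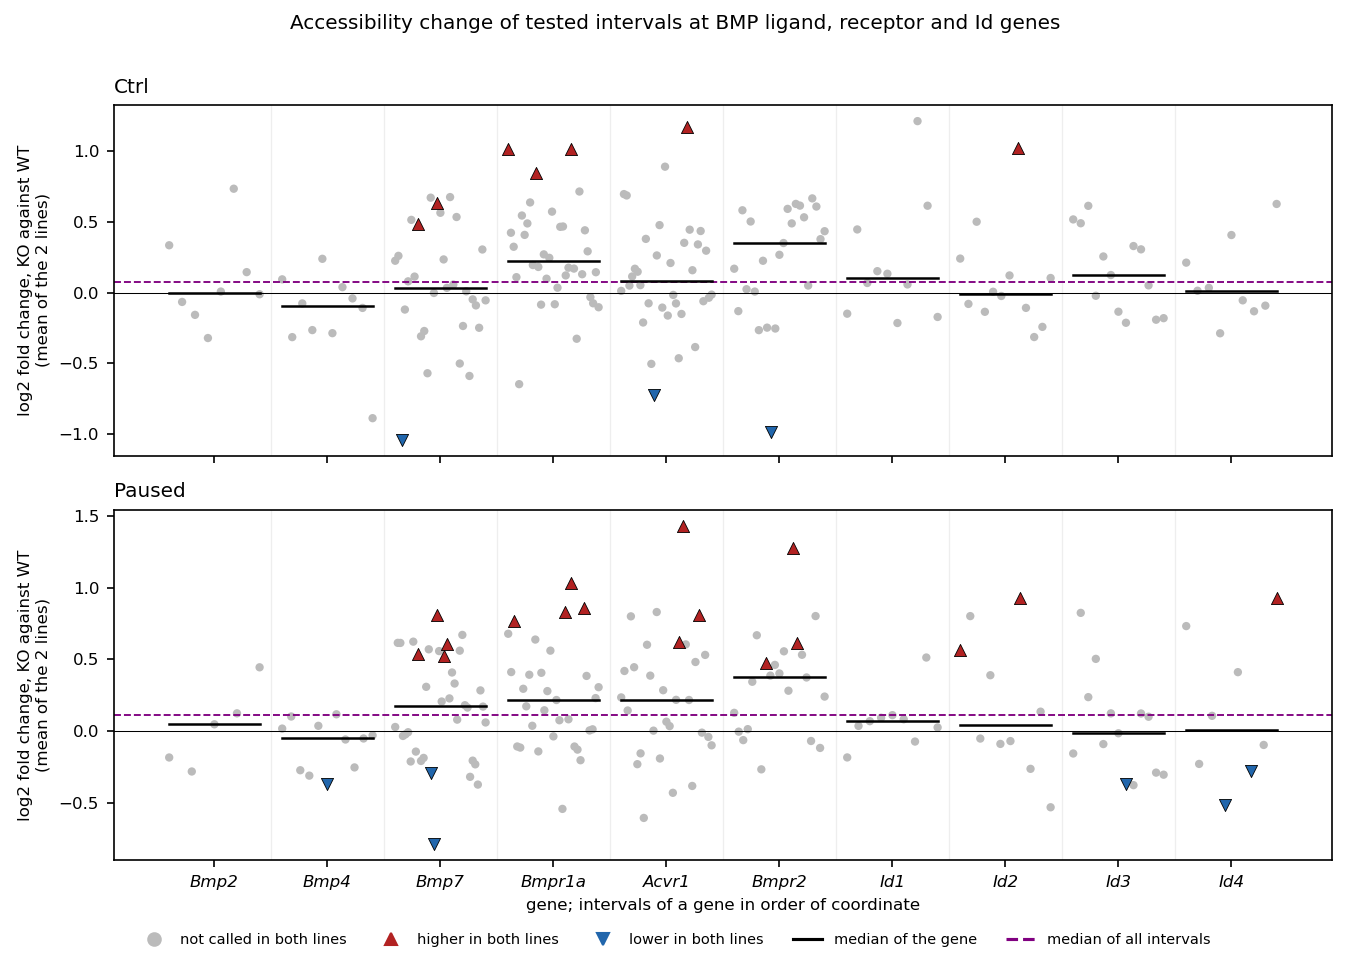
Log2 fold change of KO against WT (mean of the 2 lines) for every tested member interval, ordered by coordinate within each gene, in Ctrl (top) and Paused (bottom); triangles passed the test in both lines, short bars are gene medians and the dashed line is the median of all intervals. Most upward triangles are at Bmp7 and the receptors, which also hold most of the tested intervals (29 and 91 in Ctrl, 36 and 81 in Paused). Bmp2 (8 in Ctrl and 5 in Paused) and Id1 (10 and 9) hold few and have no triangle. The medians of Bmpr2 (0.35 in Ctrl and 0.37 in Paused) lie highest.

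By role, the ligands had 2 higher and 1 lower of 47 intervals in Ctrl and 4 and 3 of 52 in Paused. The receptors had 4 higher and 2 lower of 91 in Ctrl, and 10 higher (12.3%) and 0 lower of 81 in Paused. The Id genes had 1 higher and 0 lower of 44 in Ctrl and 3 and 3 of 40 in Paused. With size factors that set the median ratio between libraries to 1, the Paused counts were 8 higher and 1 lower for the receptors and 2 higher and 6 lower for the Id genes. The backgrounds were then 5.92% and 8.87%. With level-dependent offsets the Paused receptors had 11 higher and 1 lower, and the Id genes 0 higher and 1 lower. Over all 260539 intervals, 12011 were higher and 13135 lower with these offsets. Whether the receptors differ from the 9.01% and 4.92% of all Paused intervals was not tested. Smad2_KO1 alone gave 13 higher and 5 lower members in Ctrl (backgrounds 7.10% and 4.52%) and 22 and 6 in Paused (12.9% and 6.56%), and Smad2_KO2 alone 15 and 7 (5.83% and 4.85%) and 21 and 9 (12.4% and 6.86%). No member differed between the 2 KO lines in limma, edgeR or DESeq2, and neither did any other tested interval (0 of 282089 in Ctrl and 0 of 260539 in Paused). In limma 1 member in Ctrl and 5 in Paused had an unadjusted p under 0.05, against 3.28% and 1.97% of all intervals.

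Some counts depended on the scaling and on single libraries. With size factors the split turned to 5 higher and 8 lower members in Ctrl (backgrounds 2.79% and 4.82%) and to 13 and 11 in Paused (5.92% and 8.87%), and edgeR on the recovered reads gave 5 and 8 in Ctrl (2.60% and 5.19%) and 12 and 12 in Paused (5.50% and 9.02%). The size factors moved the median of all intervals to 0.01 in both tables. With level-dependent offsets, 5 members were higher and 4 lower in Ctrl, against 7496 and 10841 of all 282089 intervals. In Paused these offsets gave 14 higher and 3 lower members, against 12011 and 13135 of all 260539 intervals. There the share of higher members was above that of all intervals, and the difference was not tested. With KO libraries averaged by replicate number there were 16 higher (8.79%) and 9 lower (4.95%) in Ctrl, against 7.71% and 5.34% of all intervals, and 19 (11.0%) and 8 (4.62%) in Paused, against 13.2% and 6.61%. Leaving out Smad2_KO1 replicate 3 left 4 higher in Ctrl, and leaving out Smad2_KO2 replicate 4 left 0 lower. Over all Ctrl intervals the first left 7702 higher of 11132, and the second 7846 lower, beside 9027 with all libraries. Leaving out WT replicate 3 or 4 or Smad2_KO2 replicate 1 or 3 left 1 lower in Ctrl, where 6618, 6401, 7534 and 7317 of all intervals were lower. In Paused, 2 lower were left without Smad2_KO2 replicate 2, and 3 without WT replicate 1, Smad2_KO1 replicate 2 or Smad2_KO2 replicate 1. Over all Paused intervals these left, in that order, 9703, 10115, 9158 and 10231 lower, beside 12816 with all libraries.

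The direction of change moved with the level of an interval, at the members as over all intervals. Over all intervals split into deciles by mean level, the median log2 fold change fell from 0.23 in the lowest to -0.07 in the highest decile of Ctrl, and in Paused from 0.36 to -0.14. In the highest decile of Paused 5 of 24 members were lower (20.8%) and 1 was higher (4.17%), where 18.1% and 2.04% of all intervals of that decile were lower and higher. The level is the mean of 12 libraries, 8 of them KO, so it is not independent of the change: the 1 higher member, at Bmp7, is in this decile with a WT mean of 107 and a KO mean of 153. In the other deciles 16 of 149 members were higher (10.7%) and 1 was lower (0.671%), against 9.79% and 3.46%. The difference of each member from the median of its own decile had a median of 0.06 in Ctrl and 0.03 in Paused. Of the 6 lower calls in Paused, 5 thus sat on strongly open intervals, and 2 of the 6 kept their call with offsets that follow the level.

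**Figure D2:**
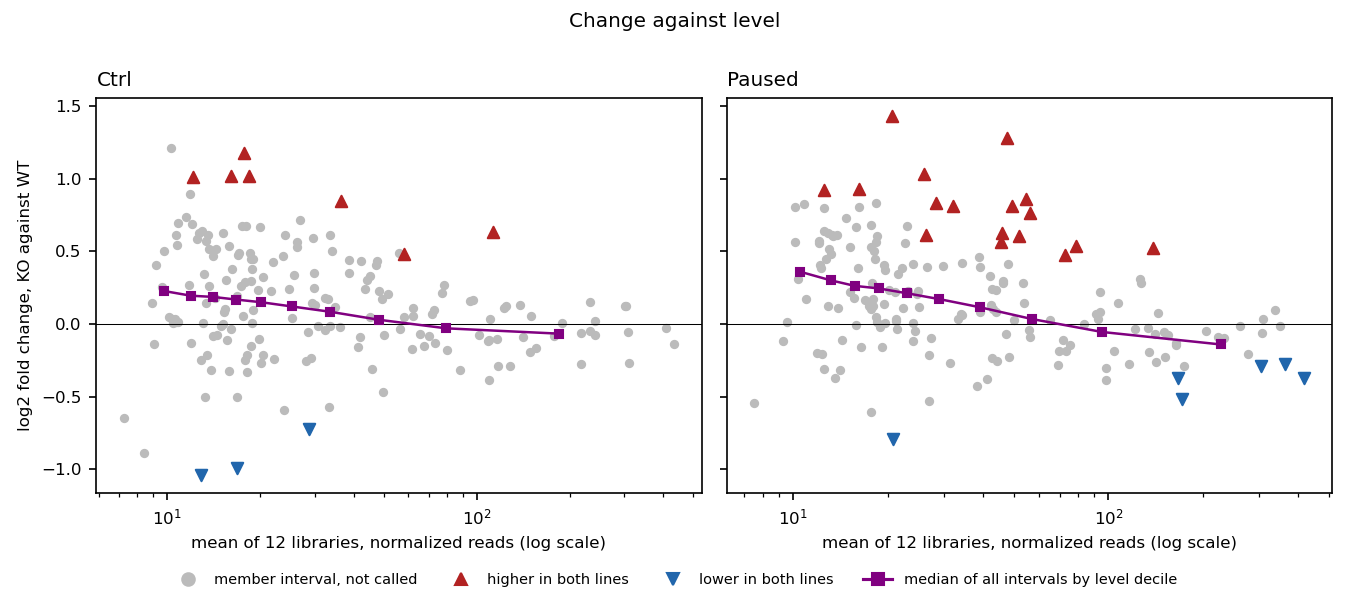
Log2 fold change of KO against WT (mean of the 2 lines) against the mean over 12 libraries in normalized reads (log scale) for the member intervals of Ctrl (left) and Paused (right), with the median of all intervals in each level decile as joined squares. The squares fall with the level, to -0.07 in Ctrl and to -0.14 in Paused, and 5 of the 6 lower members of Paused sit at the high end.

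The 5 gene starts that held an interval were open, and few of the intervals chosen for the genes passed the test. An interval lay within 1000 bases of the annotated start of Bmpr1a, Acvr1, Bmpr2, Id2 and Id4 in both tables; for Bmp2, Bmp7 and Id1, whose strand is not known here, the strongest interval overlapping the gene extended by 1000 bases was taken. None of the intervals analysed here lay within 1000 bases of the start of Bmp4 or Id3. Of the 8 intervals so chosen in each table (different intervals in the 2 tables for Bmp7 and Id2, and only partly overlapping ones for Id1), 0 were called in Ctrl and 2 in Paused, both lower. Over all tested intervals 3.95% were higher and 3.20% lower in Ctrl, and 9.01% and 4.92% in Paused. The 2 were the start of Id4 and an interval inside Bmp7, both in the highest level decile of Paused, where 18.1% of all intervals were lower. Both calls ended with level-dependent offsets (larger limma adjusted p 0.491 and 0.297). At the start of Id2 in Ctrl (chromosome 12, 25096098 to 25096298), the 4 WT libraries held 433, 425, 369 and 434 normalized reads, the Smad2_KO1 libraries 446, 365, 434 and 404, and the Smad2_KO2 libraries 417, 405, 398 and 392. The groups overlapped, and the log2 fold changes were -0.01 (SE 0.08) in Smad2_KO1 and -0.04 (SE 0.08) in Smad2_KO2 with limma adjusted p of 0.957 and 0.821. The starts of Bmpr2, Acvr1 and Bmpr1a likewise overlapped in both tables, with log2 fold changes between -0.14 and 0.17.

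**Figure D3:**
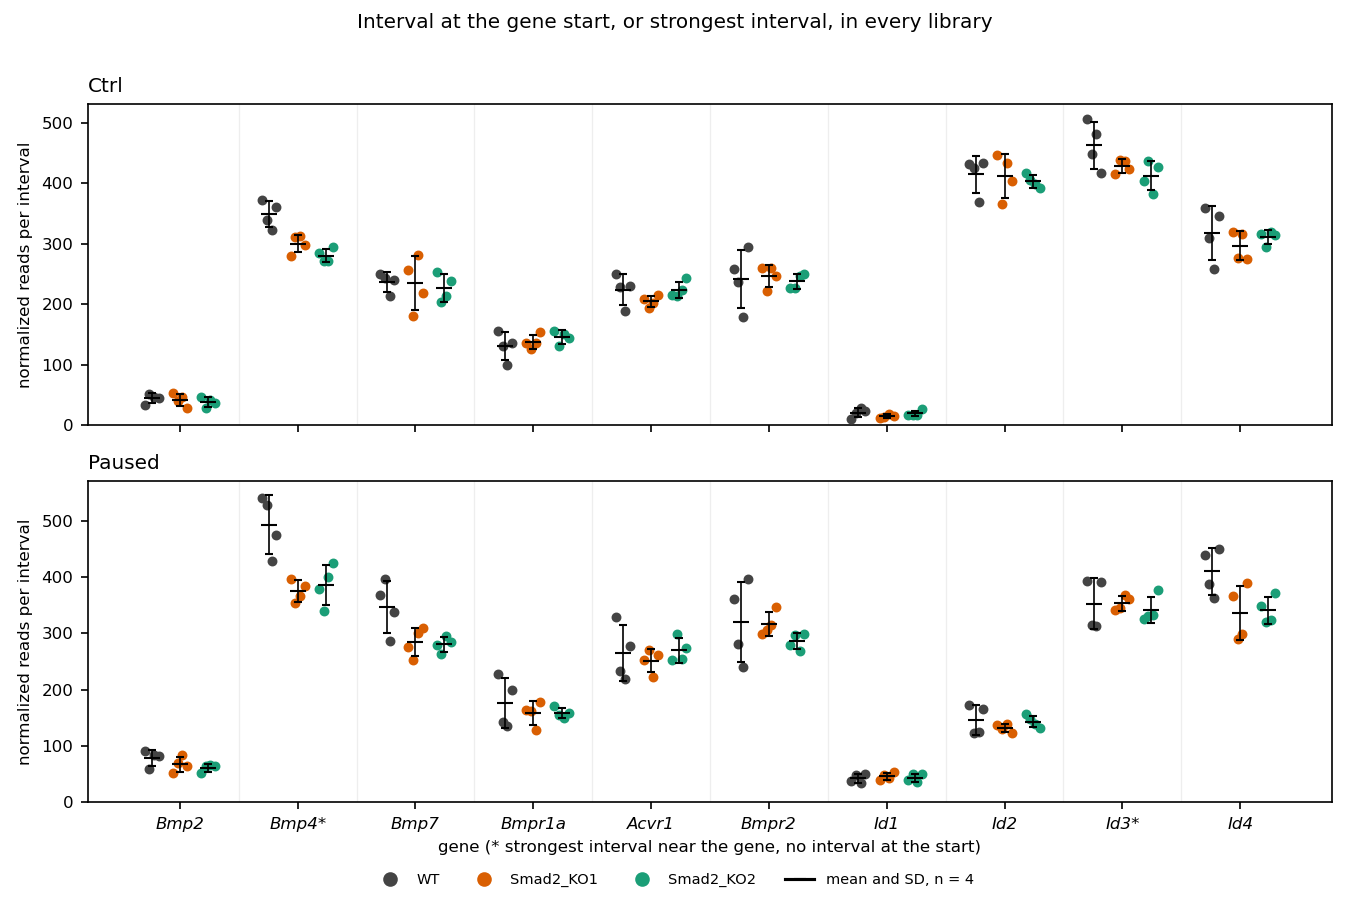
Normalized reads in each of the 12 libraries of Ctrl (top) and Paused (bottom) at the interval of each gene start, or at the strongest interval in or near the gene (for Bmp4 and Id3, marked with an asterisk, within 20 kb), with the mean and SD of 4 libraries per line. WT and KO points overlap at every gene except Bmp4, where all 8 KO libraries lie below all 4 WT libraries in both tables.

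Among the ligands, Bmp2 showed no call in either table. Bmp2 encodes a ligand that signals through Bmpr1a and Bmpr2. Its strongest interval in or within 1000 bases of the gene in Ctrl (chromosome 2, 133553222 to 133553422) held 44.4 ± 8.01 (WT), 41.7 ± 10.3 (Smad2_KO1) and 38.2 ± 8.03 (Smad2_KO2; SD, n = 4 each). In Paused the interval there (chromosome 2, 133553262 to 133553462) held 78.5 ± 14.2 (WT), 67.1 ± 13.1 (Smad2_KO1) and 61.3 ± 6.99 (Smad2_KO2; SD, n = 4 each). The differences did not pass the test, with log2 fold changes of -0.22 (SE 0.15) in Smad2_KO1 and -0.34 (SE 0.15) in Smad2_KO2 in Paused and limma adjusted p of 0.309 and 0.108. All 8 Bmp2 intervals of Ctrl and all 5 of Paused passed the filter, and most were weak, with a median level of 15.4 and 18.4 normalized reads.

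Bmp4, which embryonic stem cells themselves can secrete, fell at its strongest interval in Paused. It lies just over 1 kb upstream of the gene. In Paused (chromosome 14, 46391821 to 46392021), the 4 WT libraries held 541, 529, 428 and 475 normalized reads, the Smad2_KO1 libraries 396, 353, 367 and 384, and the Smad2_KO2 libraries 379.5, 340.5, 399.6 and 424. All 8 KO libraries lay below all 4 WT libraries. The log2 fold changes were -0.39 (SE 0.08) in Smad2_KO1 and -0.35 (SE 0.08) in Smad2_KO2, with limma adjusted p of 0.00116 and 0.00307. The matching Ctrl interval (chromosome 14, 46391827 to 46392027) held 373, 339, 323 and 361 in WT, 280.4, 310.5, 312 and 298 in Smad2_KO1 and 285, 271, 271 and 294 in Smad2_KO2, again without overlap. There only Smad2_KO2 passed the limma test, with adjusted p of 0.0978 and 0.0135 for the 2 lines, and with size factors both passed (larger adjusted p 0.0168). The Paused call ended with level-dependent offsets, at a larger adjusted p of 0.117. Of the other 10 tested Bmp4 intervals of Paused and all 10 of Ctrl, 0 were called in both lines.

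Bmp7 moved in both directions inside 1 gene body. Bmp7 encodes a ligand that signals through Acvr1 as well as through other BMP type I receptors. In Ctrl 2 of 29 tested intervals were higher and 1 lower, and in Paused 4 of 36 were higher and 2 lower. The clearest was an interval within the gene at chromosome 2, 172889842 to 172890042: in Ctrl the 4 WT libraries held 76.9, 91.4, 86.5 and 74.4 normalized reads, the Smad2_KO1 libraries 154, 118, 123 and 117, and the Smad2_KO2 libraries 115, 131, 136 and 134. Every KO library was above every WT library. The log2 fold changes were 0.63 (SE 0.12) in Smad2_KO1 and 0.64 (SE 0.12) in Smad2_KO2, with limma adjusted p of 0.000403 and 0.000288. In Paused the interval at chromosome 2, 172889848 to 172890048 held 101, 112, 126 and 88.7 in WT, 159, 159, 143 and 169 in Smad2_KO1 and 131, 139, 168 and 159.7 in Smad2_KO2. It rose by log2 fold changes of 0.56 (SE 0.12) in Smad2_KO1 and 0.48 (SE 0.12) in Smad2_KO2, with limma adjusted p of 0.000671 and 0.00301, again without overlap. Both calls held when any 1 library was left out. In DESeq2 the Ctrl call held, while 0 Bmp7 intervals of Paused were called higher.

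A second Bmp7 interval, about 3 kb outside the gene, was also higher in both tables. In Ctrl (chromosome 2, 172864712 to 172864912) it held 45.9 ± 4.02 (WT), 62.6 ± 6.54 (Smad2_KO1) and 66.6 ± 6.01 (Smad2_KO2; SD, n = 4 each), and in Paused (chromosome 2, 172864738 to 172864938) 60.0 ± 6.35 (WT), 95.5 ± 5.93 (Smad2_KO1) and 80.3 ± 8.57 (Smad2_KO2; SD, n = 4 each). The groups did not overlap in either table, but with size factors neither passed (larger limma adjusted p 0.0944 and 0.0846). The Ctrl call was also lost without any 1 of WT replicates 1, 3 and 4, Smad2_KO1 replicates 1, 3 and 4 and Smad2_KO2 replicate 4 (adjusted p up to 0.142), and the Paused call without any 1 of WT replicate 1 and Smad2_KO2 replicates 1 and 2 (up to 0.0919). Within the gene, 2 more intervals rose in Paused: chromosome 2, 172892110 to 172892310, with 38.1 ± 3.28 (WT), 57.3 ± 5.03 (Smad2_KO1) and 60.2 ± 9.32 (Smad2_KO2; SD, n = 4 each), and chromosome 2, 172875987 to 172876187, with 21.9 ± 8.44 (WT), 40.2 ± 3.57 (Smad2_KO1) and 34.6 ± 4.35 (Smad2_KO2; SD, n = 4 each). The first kept its call without any 1 library, and the second lost it without any 1 of WT replicate 1 and Smad2_KO2 replicate 2 (adjusted p up to 0.0941).

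The lower Bmp7 intervals lay apart from these. In Paused the interval at chromosome 2, 172873864 to 172874064, inside the gene, fell from 27.0, 27.9, 27.0 and 34.4 normalized reads in WT to 12.3, 17.2, 15.6 and 15.9 in Smad2_KO1 and 17.0, 12.0, 21.3 and 21.9 in Smad2_KO2. The groups did not overlap, and the log2 fold changes were -0.89 (SE 0.23) in Smad2_KO1 and -0.69 (SE 0.23) in Smad2_KO2 with limma adjusted p of 0.00596 and 0.0324. It kept its call with level-dependent offsets (larger adjusted p 0.00658) and lost it without any 1 of WT replicate 4 and Smad2_KO2 replicates 1 and 2 (up to 0.152). The strongest Bmp7 interval of Paused (chromosome 2, 172871706 to 172871906) held 347 ± 46.7 (WT), 285 ± 25.7 (Smad2_KO1) and 280.4 ± 13.3 (Smad2_KO2; SD, n = 4 each), with overlapping groups, and lost its call without any 1 of WT replicates 1 and 2, Smad2_KO1 replicates 1 and 2 and Smad2_KO2 replicate 2 (up to 0.135). A weak Ctrl interval outside Bmp7 (chromosome 2, 172854309 to 172854509), in the body of the uncharacterized gene Gm36254, held 20.6 ± 8.64 (WT), 8.93 ± 1.22 (Smad2_KO1) and 8.97 ± 3.15 (Smad2_KO2; SD, n = 4 each) and lost its call without any 1 of WT replicates 1, 3 and 4, Smad2_KO1 replicates 1, 2 and 3 and Smad2_KO2 replicate 4 (up to 0.131).

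At Bmpr1a, a type I receptor for Bmp2 and Bmp4, every call was higher: 3 higher and 0 lower of 34 tested intervals in Ctrl, and 4 and 0 of 31 in Paused. In Ctrl the interval at chromosome 14, 34427902 to 34428102, inside the gene, was the firmest: the 4 WT libraries held 22.4, 28.7, 19.7 and 22.6 normalized reads, the Smad2_KO1 libraries 34.2, 48.3, 43.1 and 41.6, and the Smad2_KO2 libraries 46.1, 53.7, 42.5 and 33.2. No KO library fell into the WT range. It rose by log2 fold changes of 0.81 (SE 0.19) in Smad2_KO1 and 0.87 (SE 0.19) in Smad2_KO2, with limma adjusted p of 0.00224 and 0.00111. A second interval inside the gene was higher in both tables. In Ctrl (chromosome 14, 34485174 to 34485374) it held 8.54, 12.5, 9.86 and 10.8 in WT, 18.8, 22.6, 26.2 and 15.0 in Smad2_KO1 and 23.1, 19.1, 23.4 and 31.2 in Smad2_KO2, without overlap. Its Ctrl log2 fold changes were 0.91 (SE 0.25) in Smad2_KO1 and 1.13 (SE 0.25) in Smad2_KO2, and the call was lost without Smad2_KO1 replicate 3 (larger limma adjusted p 0.0611). In Paused (chromosome 14, 34485171 to 34485371) it held 19.0 ± 7.64 (WT), 33.7 ± 7.62 (Smad2_KO1) and 32.5 ± 2.3 (Smad2_KO2; SD, n = 4 each), with overlap, and limma adjusted p of 0.00672 and 0.00838. The remaining Ctrl call (chromosome 14, 34394044 to 34394244), with 6.75 ± 2.83 (WT), 14.1 ± 3.77 (Smad2_KO1) and 15.7 ± 7.28 (Smad2_KO2; SD, n = 4 each), lay in the body of the neighbouring gene Mmrn2 with overlapping groups, and was lost without any 1 of WT replicates 1, 3 and 4, Smad2_KO1 replicates 2, 3 and 4 and Smad2_KO2 replicates 1, 2 and 3 (adjusted p up to 0.181) and with size factors (0.0705).

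Paused added 3 Bmpr1a calls that leaving out any 1 library did not end. Upstream of the gene (chromosome 14, 34508218 to 34508418), the 4 WT libraries held 36.7, 36.5, 33.5 and 33.1 normalized reads, the Smad2_KO1 libraries 62.7, 85.2, 57.0 and 55.6, and the Smad2_KO2 libraries 53.9, 78.0, 68.5 and 58.0. All KO libraries stood above all WT libraries, and the log2 fold changes were 0.86 (SE 0.16) in Smad2_KO1 and 0.86 (SE 0.16) in Smad2_KO2, with limma adjusted p of 0.000189 and 0.000214. Inside the gene (chromosome 14, 34494281 to 34494481), values were 14.9 ± 2.11 (WT), 27.9 ± 4.18 (Smad2_KO1) and 35.3 ± 4.63 (Smad2_KO2; SD, n = 4 each). The groups did not overlap there either, with log2 fold changes of 0.86 (SE 0.21) in Smad2_KO1 and 1.19 (SE 0.21) in Smad2_KO2 and limma adjusted p of 0.00276 and 8.66e-05. The third (chromosome 14, 34399998 to 34400198), in Mmrn2, held 38.0 ± 5.6 (WT), 71.0 ± 10.6 (Smad2_KO1) and 59.9 ± 6.2 (Smad2_KO2; SD, n = 4 each) and did not overlap. It rose by 0.88 (SE 0.15) in Smad2_KO1 and 0.65 (SE 0.15) in Smad2_KO2 on the log2 scale. The Bmpr1a start did not pass the test: in Paused it held 176 ± 44.4 (WT), 158 ± 21.2 (Smad2_KO1) and 158 ± 9.16 (Smad2_KO2; SD, n = 4 each), with limma adjusted p of 0.466 and 0.517.

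Acvr1, a type I receptor used by Bmp7 among others, had 1 higher and 1 lower of 34 tested intervals in Ctrl, and 3 higher and 0 lower of 29 in Paused. An interval inside the gene was higher in both tables. In Ctrl (chromosome 2, 58542360 to 58542560), the 4 WT libraries held 9.61, 12.5, 14.2 and 3.24 normalized reads, the Smad2_KO1 libraries 17.1, 28.8, 19.7 and 19.6, and the Smad2_KO2 libraries 23.1, 25.5, 23.4 and 15.1. All KO libraries were above all WT libraries, with log2 fold changes of 1.16 (SE 0.29) in Smad2_KO1 and 1.19 (SE 0.29) in Smad2_KO2 and limma adjusted p of 0.00547 and 0.00459. The WT values are near the lowest that were tested, and without WT replicate 4 the larger adjusted p was 0.0599. In Paused (chromosome 2, 58542374 to 58542574) the values were 11.9, 3.22, 17.3 and 7.95 in WT, 21.9, 33.5, 28.5 and 22.8 in Smad2_KO1 and 33.0, 25.5, 25.8 and 15.3 in Smad2_KO2. WT replicate 3 overlapped the lowest KO library, and the log2 fold changes were 1.49 (SE 0.30) in Smad2_KO1 and 1.37 (SE 0.30) in Smad2_KO2, with limma adjusted p of 0.0005 and 0.00129. This was the largest mean change of any tested member in Paused.

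The other Acvr1 calls were smaller. In Paused the interval at chromosome 2, 58538464 to 58538664 held 33.6 ± 4.14 (WT), 53.3 ± 1.32 (Smad2_KO1) and 51.3 ± 9.09 (Smad2_KO2; SD, n = 4 each), without overlap, and lost its call without Smad2_KO2 replicate 2 (larger limma adjusted p 0.0504). At chromosome 2, 58561435 to 58561635, about 5 kb into the gene, values were 33.0 ± 9.3 (WT), 61.4 ± 12.8 (Smad2_KO1) and 53.9 ± 9.86 (Smad2_KO2; SD, n = 4 each). The WT range reached just into the KO range, and the call held without any 1 library. The lower Ctrl interval (chromosome 2, 58484408 to 58484608) held 39.5 ± 10.3 (WT), 21.4 ± 4.41 (Smad2_KO1) and 25.1 ± 1.42 (Smad2_KO2; SD, n = 4 each), without overlap. Its call was lost without any 1 of WT replicates 3 and 4 and Smad2_KO2 replicates 1, 2, 3 and 4 (up to 0.214) and with library totals (0.0532).

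Bmpr2, the type II receptor, had the smallest adjusted p among the called members. In Paused, at chromosome 1, 59848403 to 59848603 inside the gene, the 4 WT libraries held 20.5, 29.0, 37.8 and 13.2 normalized reads, the Smad2_KO1 libraries 63.7, 77.9, 55.3 and 54.6, and the Smad2_KO2 libraries 60.9, 68.2, 44.9 and 47.0. The KO means were 2.50 times (Smad2_KO1) and 2.20 times (Smad2_KO2) the WT mean, with no overlap. The log2 fold changes were 1.37 (SE 0.20) in Smad2_KO1 and 1.18 (SE 0.20) in Smad2_KO2, with limma adjusted p of 1.03e-05 and 8.98e-05, and the call held without any 1 library. The 2 other Paused calls were chromosome 1, 59826578 to 59826778, with 57.7 ± 10.4 (WT), 79.2 ± 19.7 (Smad2_KO1) and 81.4 ± 5.0 (Smad2_KO2; SD, n = 4 each), and chromosome 1, 59862722 to 59862922, with 19.2 ± 2.25 (WT), 28.3 ± 1.78 (Smad2_KO1) and 31.7 ± 4.26 (Smad2_KO2; SD, n = 4 each). Neither passed with size factors (larger limma adjusted p 0.11 and 0.107). The first was lost without any 1 of WT replicate 4 and Smad2_KO1 replicates 2 and 3 (up to 0.217), and the second without any 1 of WT replicates 1, 2 and 4, Smad2_KO1 replicates 1, 2, 3 and 4 and Smad2_KO2 replicates 1, 2, 3 and 4 (up to 0.123).

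In Ctrl the 1 call at Bmpr2 was lower. The interval at chromosome 1, 59803604 to 59803804, inside the gene, held 21.4, 26.9, 32.9 and 20.5 in WT, 5.98, 13.4, 15.9 and 10.4 in Smad2_KO1 and 14.0, 15.5, 12.8 and 12.1 in Smad2_KO2, with no overlap. The log2 fold changes were -1.14 (SE 0.27) in Smad2_KO1 and -0.84 (SE 0.27) in Smad2_KO2, with limma adjusted p of 0.00325 and 0.0343, and the call was lost without any 1 of WT replicates 2 and 3 and Smad2_KO2 replicates 1, 3 and 4 (up to 0.123). The median log2 fold change of the tested Bmpr2 intervals was 0.35 in Ctrl and 0.37 in Paused, the highest of the 10 genes in both tables, and stood 0.27 and 0.13 above the medians of the same level deciles.

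**Figure D4:**
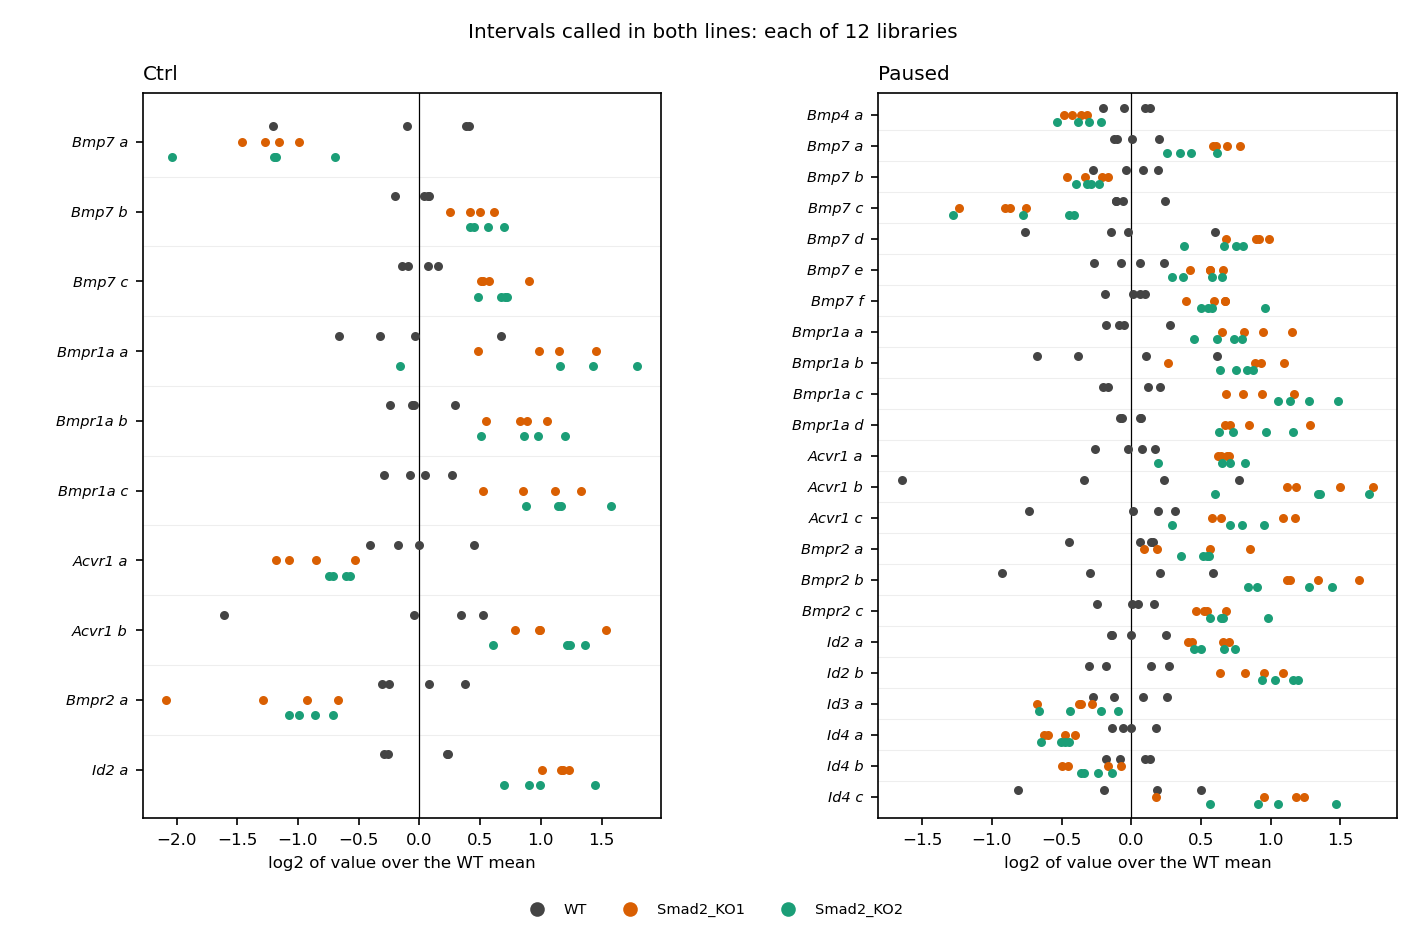
Log2 of each library's value over the WT mean at the member intervals called in both KO lines, in Ctrl (10 intervals) and Paused (23 intervals); letters number the intervals of a gene by coordinate and colours mark the line. The Smad2_KO1 and Smad2_KO2 points lie on the same side of the WT mean at nearly every interval. This follows from the selection, since a call required the same sign in both lines. WT and KO ranges overlap at 2 of the intervals in Ctrl and 9 in Paused.

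Id1 showed no call in either table. Id1 is a direct target of the BMP Smads. The strongest interval in or within 1000 bases of the gene in Ctrl (chromosome 2, 152735549 to 152735749) was weak, with 9.61, 20.6, 28.5 and 23.7 normalized reads in WT, 11.1, 13.4, 18.7 and 15.0 in Smad2_KO1 and 17.0, 16.4, 17.0 and 26.2 in Smad2_KO2. All groups overlapped there. The strongest interval of the window lay about 9 kb from the gene, where Ctrl held 217 ± 40.2 (WT), 237 ± 31.7 (Smad2_KO1) and 242 ± 19.8 (Smad2_KO2; SD, n = 4 each), and Paused 327 ± 78.1 (WT), 335 ± 20.0 (Smad2_KO1) and 350.4 ± 32.6 (Smad2_KO2; SD, n = 4 each). The limma adjusted p were 0.462 and 0.336 in Ctrl and 0.717 and 0.428 in Paused. A weak Id1 interval of Ctrl (chromosome 2, 152744684 to 152744884), singled out after its values were seen, had the largest mean log2 fold change of the tested members, 1.21, and missed the threshold in Smad2_KO1, with limma adjusted p of 0.0537 and 0.0288.

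Id2, whose start did not pass the test, had its calls at distal intervals. About 7 kb upstream, in Ctrl (chromosome 12, 25102769 to 25102969), the 4 WT libraries held 7.48, 10.8, 7.67 and 10.8 normalized reads, the Smad2_KO1 libraries 20.5, 18.5, 21.6 and 20.8, and the Smad2_KO2 libraries 25.1, 18.2, 14.9 and 17.1. In Paused (chromosome 12, 25102765 to 25102965) the values were 10.8, 11.8, 8.63 and 7.95 in WT, 15.2, 17.2, 19.0 and 20.9 in Smad2_KO1 and 20.0, 18.8, 22.4 and 21.9 in Smad2_KO2. The groups did not overlap in either table, and every KO library was higher. Log2 fold changes were 1.09 (SE 0.26) in Smad2_KO1 and 0.96 (SE 0.26) in Smad2_KO2 in Ctrl, and 0.83 (SE 0.25) in Smad2_KO1 and 1.02 (SE 0.25) in Smad2_KO2 in Paused. The limma adjusted p were 0.00343 and 0.0108, and 0.0179 and 0.00386. The Ctrl call was lost without Smad2_KO2 replicate 1 (0.066), the Paused call without Smad2_KO1 replicate 4 (0.054) and with level-dependent offsets (0.126). A second Paused interval, about 20 kb downstream (chromosome 12, 25074082 to 25074282), held 34.5 ± 4.64 (WT), 50.7 ± 5.28 (Smad2_KO1) and 52.1 ± 5.05 (Smad2_KO2; SD, n = 4 each), did not overlap, and lost its call without Smad2_KO1 replicate 1 (0.0507).

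Id3 had 0 calls in Ctrl and 1 lower in Paused. The called interval (chromosome 4, 136146570 to 136146770) lies just over 1 kb past the gene. It held 207, 234, 179 and 162 in WT, 151, 122, 152 and 161 in Smad2_KO1 and 124, 144, 183 and 168 in Smad2_KO2. The groups overlapped. The log2 fold changes were -0.41 (SE 0.12) in Smad2_KO1 and -0.34 (SE 0.12) in Smad2_KO2, with limma adjusted p of 0.0143 and 0.0424. The call ended with library totals (0.0676) and level-dependent offsets (0.174), and without any 1 of WT replicates 1 and 2, Smad2_KO1 replicates 1, 2 and 3 and Smad2_KO2 replicates 1 and 2 (up to 0.206). The strongest Id3 interval of Paused, about 3 kb upstream, held 353 ± 44.8 (WT), 354 ± 13.2 (Smad2_KO1) and 342 ± 23.3 (Smad2_KO2; SD, n = 4 each), differences smaller than the SD.

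Id4 had 0 calls in Ctrl, and 2 lower and 1 higher of 8 in Paused. The firmest was about 8 kb upstream (chromosome 13, 48252628 to 48252828), in the body of the non-coding gene A330033J07Rik: the 4 WT libraries held 214, 242, 194 and 205 normalized reads, the Smad2_KO1 libraries 162, 141, 138 and 154, and the Smad2_KO2 libraries 151, 136, 154 and 156. All KO libraries were below all WT libraries, and the log2 fold changes were -0.52 (SE 0.10) in Smad2_KO1 and -0.51 (SE 0.10) in Smad2_KO2, with limma adjusted p of 0.000426 and 0.000517. It kept its call with level-dependent offsets (larger adjusted p 0.00316) and without any 1 library. At the Id4 start (chromosome 13, 48260785 to 48260985), which overlaps the printed sequence by 120 bases, the 4 WT libraries held 439, 389, 363 and 450.3 normalized reads, the Smad2_KO1 libraries 366, 291, 299 and 389, and the Smad2_KO2 libraries 349, 319, 324 and 372. The ranges overlapped, the log2 fold changes were -0.29 (SE 0.09) in Smad2_KO1 and -0.26 (SE 0.09) in Smad2_KO2, and the limma adjusted p were 0.0224 and 0.04. That call ended with library totals (0.0619) and without any 1 of WT replicates 1 and 4, Smad2_KO1 replicates 2 and 3 and Smad2_KO2 replicates 1, 2 and 3 (up to 0.126). The higher interval, about 15 kb past the gene (chromosome 13, 48281042 to 48281242), was weak, at 7.58 ± 2.74 (WT), 14.6 ± 4.25 (Smad2_KO1) and 15.5 ± 4.08 (Smad2_KO2; SD, n = 4 each), with overlapping groups, and lost its call with size factors (0.0761) and without any 1 of WT replicates 1 and 4, Smad2_KO1 replicates 2, 3 and 4 and Smad2_KO2 replicates 1, 2 and 4 (up to 0.153).

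Summed over all intervals of a gene, 2 receptors had KO and WT libraries without overlap under the deposited scaling. How many genes outside the members separate in this way was not counted, so no background share stands beside them. Tested intervals as a whole also leaned upward there, with medians of 0.08 in Ctrl and 0.12 in Paused on the log2 scale. The Bmpr2 sum in Ctrl was 862, 849, 804 and 779.7 in WT, 875, 913, 925 and 907 in Smad2_KO1 and 931, 897, 934 and 914 in Smad2_KO2. In Paused it was 898, 866, 874 and 905, 1006, 1042, 965 and 1010.1, and 1035, 1019, 984 and 945, and in both tables every KO library was above every WT library. The Bmpr1a sum in Paused was 1259, 1296, 1207 and 1138 in WT, 1466, 1514, 1343 and 1336 in Smad2_KO1 and 1384, 1460.1, 1350.5 and 1331 in Smad2_KO2, also without overlap. The log2 ratios of the means were 0.15 and 0.18 for Bmpr2 (Ctrl and Paused) and 0.19 for Bmpr1a in Paused. With size factors they were 0.07, 0.07 and 0.08 and the groups overlapped. With library totals they were 0.16, 0.21 and 0.23 without overlap, and Bmpr1a in Ctrl separated as well (0.20), so the separation depended on the scaling. The sums of the other genes overlapped, with ratios from -0.20 (Bmp4) to 0.19 (Bmpr1a) in Ctrl and from -0.21 (Id4) to 0.08 (Acvr1) in Paused. Both scalings of the sums were added after the data were seen. With size factors, Acvr1 in Ctrl and Bmp2 and Id4 in Paused lay below WT in all 8 KO libraries.

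**Figure D5:**
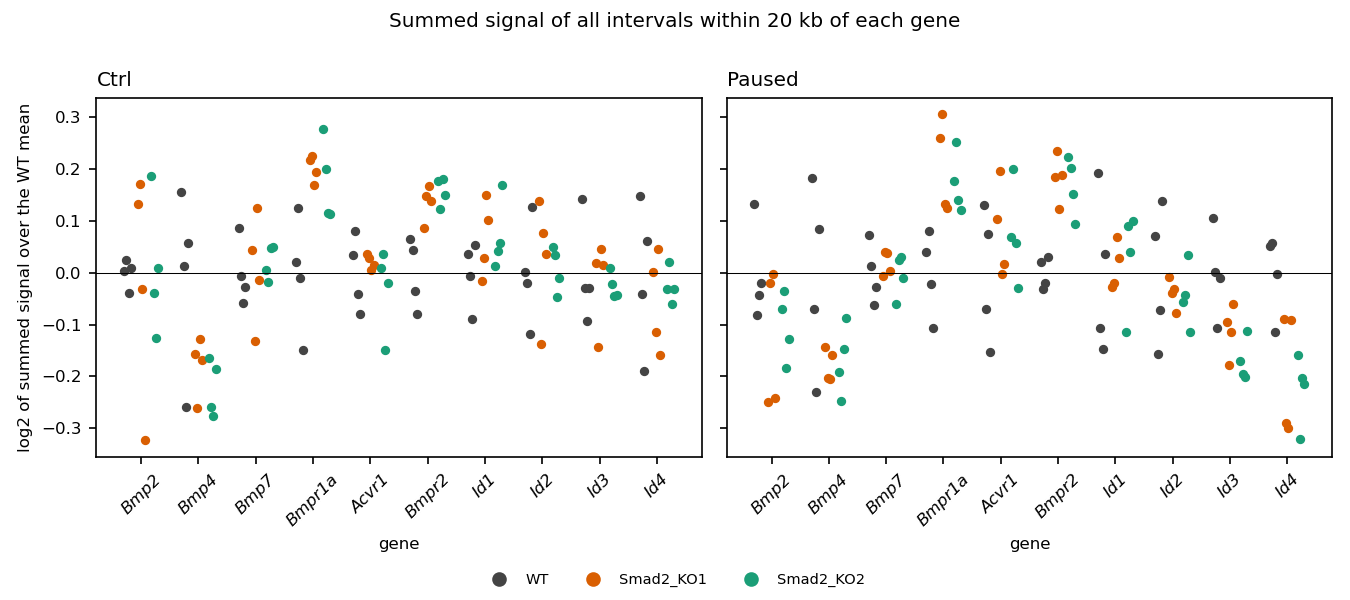
Log2 of the summed signal of all intervals within 20 kb of each gene over the WT mean, per library, in Ctrl (left) and Paused (right). Bmpr2 is above WT in all 8 KO libraries in both tables and Bmpr1a in Paused, and at Bmp2, Bmp4, Id3 and Id4 in Paused every KO library lies below the WT mean.

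Ranges alone gave similar counts. All 8 KO libraries were above all 4 WT libraries at 10 members in Ctrl (against 4.16% of all intervals) and at 14 in Paused (against 7.25%). They were below WT at 5 (against 3.32%) in Ctrl and 4 (against 4.20%) in Paused. Bmpr2 held 4 of the 10 in Ctrl, although 0 Bmpr2 intervals there were called higher.

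Between treatments, 139 member intervals could be matched 1 to 1 by an overlap of at least 50% of each. The tables were normalized separately, so their levels were not compared and no test was run across them. In all, 5 matched intervals were called in both tables, all higher (3.60% of the matched members, against 2.59% of the 208526 matched tested intervals of the whole series, and 0 lower, against 2.32%): the 2 of Bmp7 at 172889842 and 172864712, and 1 each of Bmpr1a, Acvr1 and Id2 given above. Of these 5, only the Bmp7 interval at 172889842 kept its Ctrl call in DESeq2 (larger adjusted p 0.00419). The others had larger DESeq2 adjusted p of 0.0608 to 0.232 in Ctrl. In Paused, DESeq2 called 0 Bmp7 and 0 Id2 intervals higher. DESeq2 also called fewer of all intervals higher, 2580 in Ctrl and 6092 in Paused, beside 11132 and 23477 in the main fit. The count called in opposite directions was 0 among the members and among all matched intervals. The 8 matched calls of Ctrl all had the same sign in Paused, as had 99.0% of all matched Ctrl calls, and the 20 of Paused had the same sign in Ctrl, as had 97.7% of all matched Paused calls. These counts are near those of the whole series. Over the 139 intervals the fold changes of the 2 tables had Pearson's r = 0.76 and Spearman's rho = 0.74, beside 0.74 and 0.72 over all matched intervals. Intervals share the libraries, so this is a description across intervals.

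The authors' deposited table compares all 8 KO libraries with WT as 1 group. At its false discovery rate under 0.05, 13 members were higher and 10 lower in Ctrl (6.81% and 5.24%, against 6.27% and 5.93% of all intervals). In Paused, 21 were higher and 14 lower (11.8% and 7.87%, against 12.6% and 8.96%). In that comparison too, the members' shares were near those of all intervals.

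The other genes of the pathway were read from a list of 38 genes: further ligands and receptors, Smads, inhibitors, other targets and E proteins. In Ctrl 15 of their 654 tested intervals were higher (2.29%) and 24 lower (3.67%), against 3.95% and 3.20%. In Paused 37 of 620 were higher (5.97%) and 36 lower (5.81%), against 9.01% and 4.92%. With size factors the counts were 9 higher and 39 lower in Ctrl (backgrounds 2.79% and 4.82%) and 23 and 68 in Paused (5.92% and 8.87%). The Smads of the BMP arm had 3 higher and 3 lower of 71 in Ctrl and 6 and 2 of 73 in Paused, and the inhibitors, which include secreted antagonists, 3 and 7 of 200 and 9 and 11 of 197. The E proteins, the partners that Id proteins bind, had 1 higher and 7 lower of 100 in Ctrl and 3 and 12 of 92 in Paused, with medians of -0.10 and -0.11. These are counts beside a background and were not tested as groups.

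Single intervals of the list are named by the size of their change. In Ctrl an interval at Bmpr1b, another BMP type I receptor, fell from a WT mean of 81.5 ± 5.11 to 36.5 ± 7.89 in Smad2_KO1 and to 31.8 ± 10.9 in Smad2_KO2 (SD, n = 4 each), with log2 fold changes of -1.16 and -1.40 (limma adjusted p 2.70e-05 and 9.93e-07). The other lower Ctrl examples were intervals at Tcf4 (-1.60 and -1.51) and Smad4 (-1.31 and -1.66). Higher in Ctrl were intervals at Bmp5 (1.22 and 1.04), Bmp6 (1.15 and 0.97) and the type II receptor Acvr2a (1.13 and 1.08), the last of which lost its call with size factors. In Paused an interval at Dusp9, a phosphatase and BMP target, rose from 4.89 ± 1.91 in WT to 27.8 ± 11.8 and 26.2 ± 3.62, with log2 fold changes of 2.26 and 2.27 (limma adjusted p 1.48e-06 and 1.36e-06). An interval at Acvr2a rose from 5.64 ± 0.565 to 15.7 ± 2.72 and 18.1 ± 4.10, and 1 at Smurf1, a ubiquitin ligase for BMP Smads, from 13.5 ± 2.56 to 33.4 ± 6.05 and 32.7 ± 8.45. The lower Paused examples were all E proteins: an interval at Tcf4 fell from 19.4 ± 10.7 in WT to 1.81 ± 1.62 and 3.11 ± 1.21, with log2 fold changes of -2.95 and -2.22 (limma adjusted p 0.000111 and 0.00249), and intervals at Tcf12 (from 41.0 ± 17.3 to 17.9 ± 6.52 and 16.1 ± 4.39) and Tcf3 (from 25.8 ± 6.22 to 12.3 ± 2.48 and 8.91 ± 1.94) fell as well. WT libraries reached at most 6.62 at the Dusp9 interval, and 5.48 (Ctrl) and 6.48 (Paused) at the Acvr2a intervals. These values are under the filter value of 10, so the intervals were tested through the KO libraries alone. KO libraries reached at most 9.56 (Ctrl) and 4.49 (Paused) at the Tcf4 intervals, which were tested through WT alone. For orientation, the Lefty1 and Lefty2 locus, a target of the Nodal arm, had 0 higher and 10 lower of 30 tested intervals in Ctrl (33.3%) and 0 and 10 of 28 in Paused (35.7%).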

How the data were processed

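ATAC-seq libraries of 3 lines under 2 treatments were compared within each treatment. The authors deposited 1 table per treatment, with a normalized signal per interval and library, log2 group means and fold changes, and p-values with FDR for KO against WT; FastQC, Trim Galore, Bowtie2 2.4.1, MACS3 3.0.3, DiffBind 3.16.0 and mm10 come from the submitters' processing notes, and their settings, including any read shift and duplicate removal, are not given in the sources used here. How the deposited log2 values and p-values were computed is likewise not given there, and how the signal was scaled was read from its steps: every deposited signal value lay on a ladder of whole reads (100% of values, tolerance 0.0051), which gave each library's reads and scaling factor (0.866 to 1.17 in Ctrl, 0.755 to 1.33 in Paused).

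The 2 tables were analysed separately with limma 3.58.1 (R 4.3.3), with eBayes and trend, on log2(value + 1), 3 lines in 1 fit, Benjamini-Hochberg adjusted over all intervals with a value of at least 10 in at least 4 libraries. Since the values were normalized, limma took the place of edgeR, as the design provided for that case. The filter did not ask which line the libraries came from, so a weak interval could pass through the WT or the KO libraries alone. A fold change on the log2(value + 1) scale understates the change of weak intervals. An interval was called when both KO lines had an adjusted p under 0.05 with the same sign. All tests were two-sided. Intervals named with values were the start interval or strongest interval of each gene, its strongest other interval and every called interval; those whose values are not given did not pass the test. Alternatives were size factors, TMM, library totals, level-dependent offsets, pseudocounts of 0.1 and 5, no filter, a minimum fold change, each pair of lines alone, the 8 KO libraries as 1 group or averaged by number, a replicate block, each library left out, and edgeR 4.0.16 and DESeq2 1.42.0 on the recovered reads. The members, gene lists and tests were chosen with earlier results of these data known. The level deciles and the alternatives for summed signals were added after seeing the data. On simulated Ctrl and Paused reads (282089 and 260539 intervals), the fit recovered 37% and 32% of changes of 1 on the log2 scale. It recovered 0% of changes of 0.5, with 0 false calls. These are shares over intervals of all levels. The simulation changed only a small part of the intervals and gave all of them the same fixed spread beyond sampling noise. Far more intervals were called in the data, which eases the adjusted threshold, so these shares do not measure the power or the false calls there. Promoter sequences are RefSeq's, GRCm38.p6, and gave the strand and start of 7 of the 10 genes.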

Additional observations from a re-analysis of the deposited data

Results flagged for a closer look

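In 11 of 264 groups of 4 libraries, 1 library stood apart from the other 3 by a gap larger than Dixon's critical value; chance gives about 1 in 20 groups, or 13.2. At Bmp7 these were WT replicate 4 in Ctrl at the interval starting at 172864712 (39.9 normalized reads against 47.0 to 48.4), Smad2_KO1 replicate 1 in Ctrl at 172889842 (154 against 117 to 123), WT replicate 4 in Paused at 172873864 (34.4 against 27.0 to 27.9) and Smad2_KO2 replicate 3 in Paused at 172892110 (74.1 against 54.0 to 56.9). At the receptors they were Smad2_KO2 replicate 1 in Ctrl at the Bmpr1a interval starting at 34471687 (145 against 108 to 112) and Smad2_KO2 replicate 3 in Paused at the Bmpr2 interval at 59749839 (98.8 against 82.0 to 84.7). At the Id genes they were Smad2_KO2 replicate 4 in Ctrl at the Id1 interval at 152735549 (26.2 against 16.4 to 17.0), WT replicate 3 in Ctrl at the Id2 intervals at 25096098 (369 against 425 to 434) and 25098827 (223 against 298 to 313), and Smad2_KO2 replicate 4 in Paused at the Id3 interval at 136140382 (376 against 326 to 333). The summed Id3 signal of Smad2_KO1 replicate 2 in Ctrl was 1062, against 1185 to 1210 in the other libraries of that group. Where such a library decided a call, the value without it stands beside the result.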

How the results depend on the processing

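The main counts, called in both KO lines, were 7 higher and 3 lower members in Ctrl and 17 and 6 in Paused. In Ctrl, higher calls numbered 23 with the 8 KO libraries as 1 group, 16 with KO libraries averaged by number, 2 in DESeq2 and 1 at a log2 fold change of at least 1. Over all 282089 intervals these settings gave, in that order, 30373, 21735, 2580 and 2128 higher, beside 11132 in the main fit. Lower calls in Ctrl numbered 8 with size factors and in edgeR, 7 with TMM factors, 10 with the KO libraries as 1 group, 9 averaged and 1 at a log2 fold change of at least 1. Over all intervals they numbered, in that order, 13592, 14652, 12846, 19246, 15056 and 2139, beside 9027 in the main fit. In Paused, higher calls numbered 32 with the KO libraries as 1 group, 5 in DESeq2 and 2 at a log2 fold change of at least 1. Over all 260539 intervals they numbered 49156, 6092 and 5332, beside 23477 in the main fit. Lower calls there numbered 11 with size factors and with TMM factors, 12 in edgeR, 13 as 1 group, 3 with level-dependent offsets and with each pair of lines alone, and 0 at a log2 fold change of at least 1. Over all intervals they numbered, in that order, 23104, 21072, 23509, 25578, 13135, 11134 and 1571, beside 12816 in the main fit. The 2 lower calls among the gene-start or strongest gene intervals of Paused fell to 1 with library totals and to 0 with level-dependent offsets, each pair of lines alone, or a log2 fold change of at least 1. Genes whose summed signal was higher in KO numbered 6 in Ctrl and 5 in Paused, and 2 and 2 with size factors, an alternative chosen after seeing the data. The causes of these shifts were not tested; the fold threshold removes calls by its construction.

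Leaving out 1 library at a time gave 4 to 8 higher and 0 to 3 lower members in Ctrl, 12 to 20 and 2 to 9 in Paused (9 without WT replicate 3), 0 to 2 calls among the Paused gene-start intervals (0 without WT replicate 1, 2 without WT replicate 3), and 3 to 9 (Ctrl) and 3 to 5 (Paused) genes with a higher sum, the 3 in each without WT replicate 3. Over all intervals, leaving out 1 library gave 6851 to 12201 higher and 6401 to 9309 lower in Ctrl. In Paused it gave 15509 to 25936 higher and 9158 to 14456 lower. No result changed sign among called values. With a replicate block the counts were 9 and 3 in Ctrl and 20 and 7 in Paused, and 66 of 66 named intervals kept their call. Over all intervals the block gave 12660 and 9819 in Ctrl and 27186 and 15136 in Paused. Whether the numbers pair cultures is not stated, and deviations of same-numbered libraries correlated at -0.01 to 0.19. At 11.5 to 20.0 M reads per library, weak intervals rest on few reads, and a change that missed the threshold is not shown to be absent.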
